A study of Mus musculus with 8 samples.

Results

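The mitochondrial ribosomal protein genes are the nuclear genes for the proteins of the ribosome inside mitochondria. They were chosen by symbol alone, as every protein-coding gene of mouse build mm10 named Mrpl or Mrps with a number and at most 1 further letter, which gave 78 of 21887 protein-coding genes. Peaks came from chromatin immunoprecipitation followed by sequencing (ChIP-seq) of histone H3 carrying acetyl groups (H3ac), which is typical of active promoters, and of HDAC1, an enzyme that removes acetyl groups from histones. The cells were embryonic stem cells of strain 129/Ola that had been left to differentiate without serum, in N2B27 medium, on a gelatin-coated surface. H3ac was mapped after 2, 4 and 6 days. HDAC1 was mapped after 2 days through a FLAG-tagged protein (3 FLAG-HDAC1), so it reports the tagged HDAC1 and not the endogenous protein alone. Each of the 4 ChIP libraries had its own input library and no replicate. No test between days or targets was therefore possible, and every count below describes single libraries.

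The mitochondrial ribosome translates the few proteins that the mitochondrial genome still encodes, all of them subunits of the respiratory chain and ATP synthase. Its RNAs come from mitochondrial DNA, whereas its proteins are made in the cytosol and imported, so its assembly depends on nuclear genes scattered over many chromosomes. Many of the proteins descend from the bacterial ribosome and others were added in the mitochondrial lineage. Pluripotent stem cells rely heavily on glycolysis, and differentiation is commonly accompanied by a rise in oxidative metabolism.

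Members are called marked where a deposited peak overlapped the 1 kb on either side of an end of the gene interval, which takes in 3′ ends as well as promoters. H3ac gave 17368 peaks at day 2, 12945 at day 4 and 5553 at day 6, and HDAC1 gave 5286. The lists give no read depth, so a missing peak does not show that a gene lacked acetylation or HDAC1. Of 4 pluripotency markers, all 4 had H3ac on day 2 and 1 each on days 4 and 6. Of 4 neural markers, 1, 3 and 1 had H3ac, and of 4 endoderm and mesoderm markers none had H3ac on any day.

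Most mitochondrial ribosomal protein genes had an H3ac peak on days 2 and 4, and fewer did in the shorter day 6 list. On day 2, 70 of the 78 genes were marked (89.7%, 95% Wilson interval 81.0 to 94.7%), against 40.6% of all protein-coding genes. On day 4, 67 were marked (85.9%, 76.5 to 91.9%), against 38.0% of all genes. On day 6, 45 were marked (57.7%, 46.6 to 68.0%), against 23.3%. HDAC1 marked 17 of the 78 (21.8%, 14.1 to 32.2%), against 9.40%. The intervals cover counting error over genes only, and neighbouring genes can share a peak. In a culture of mixed cells, a mark present in fewer cells and a weaker mark in each cell cannot be told apart.

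**Figure D1:**
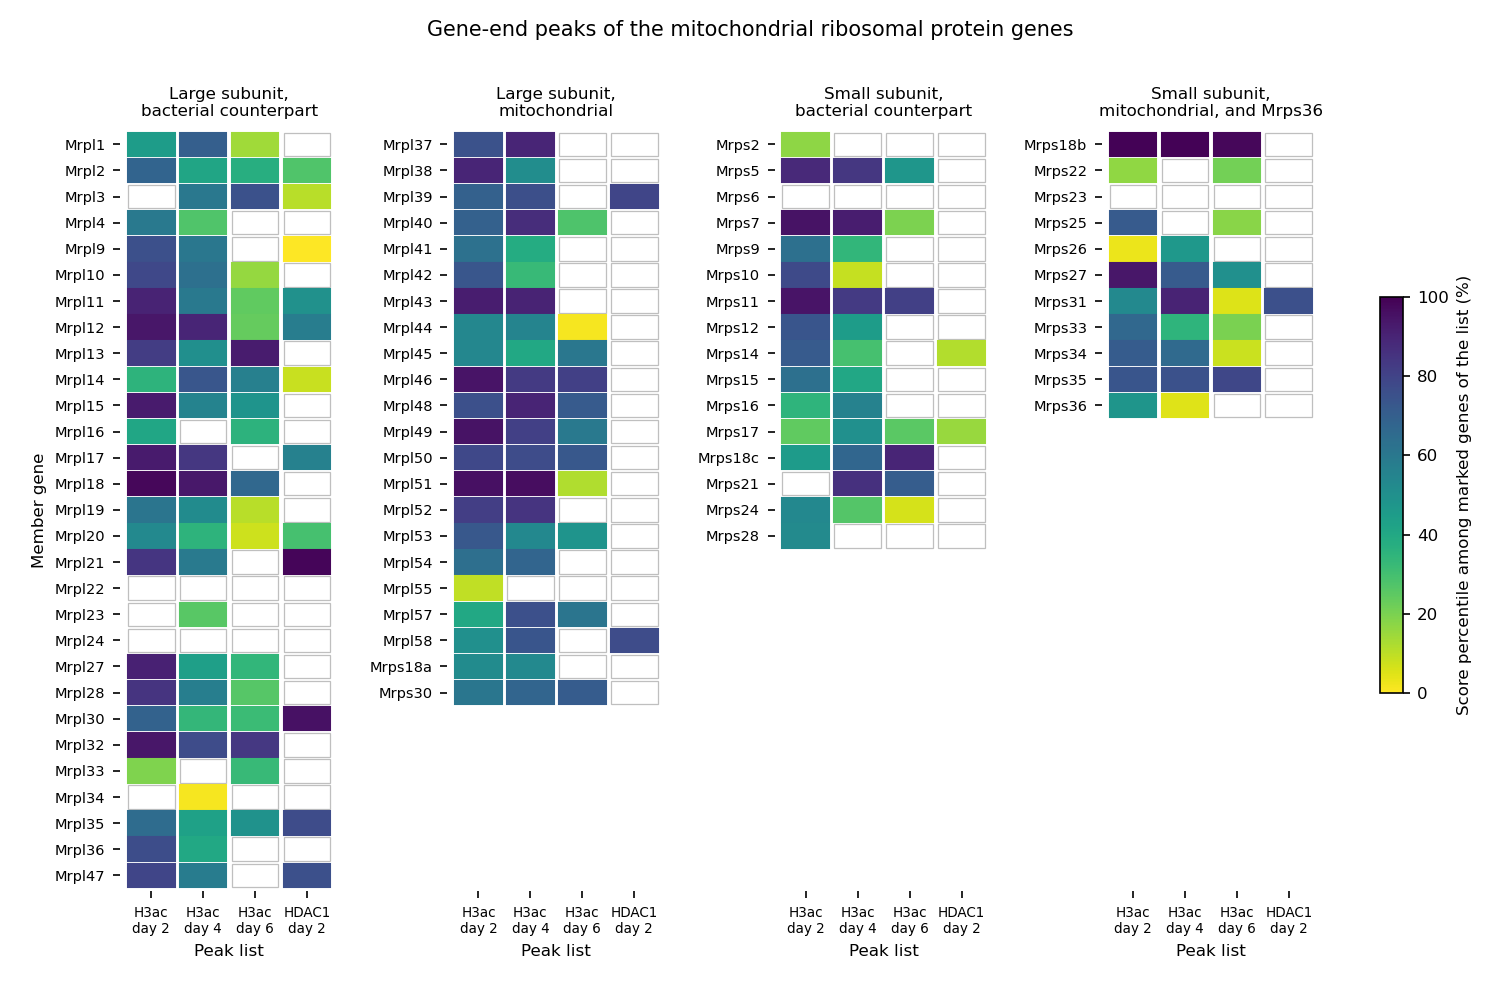
Each row is a mitochondrial ribosomal protein gene, grouped by subunit and origin, and each column is 1 of the 4 peak lists. Filled cells are marked genes, coloured by the percentile of their best gene-end score among all marked genes of that list, and open cells are genes with no gene-end peak. The H3ac columns of days 2 and 4 are nearly full (70 and 67 of 78), the day 6 column holds 45 genes and the HDAC1 column 17.

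The sequences of 5 promoters show the kinds of member that the results turn on. They are RefSeq sequences of build GRCm38.p6, which shares its coordinates with mm10, and they come from the reference strain C57BL/6J, not from the 129/Ola cells. Each window runs 5′ to 3′ from 250 bases before to 50 bases from the annotated start, and capitals mark motif letters found by search. Each window was searched on both strands for 4 motifs, of which the first 3 are known from promoters of broadly expressed genes: the NRF1 core (GCATGCG), the ETS core bound by factors such as GABPA (CCGGAAG), the YY1 core (ATGGCGG) and the TATA box (TATAAA). Mrps11 (chr7:78782881-78783180, plus strand) is shown for the only pair of members that face away from each other, because the start of Mrpl46 lies 42 bp upstream of its own. Mrps12 (chr7:28741772-28742071, minus strand) faces away from the mitochondrial seryl-tRNA synthetase gene Sars2. Mrpl21 (chr19:3282792-3283091, plus strand) held the highest-scoring HDAC1 peak among members. Mrpl22 (chr11:58171414-58171713, plus strand) has an annotated start inside the gene interval, with H3ac and HDAC1 over it. Mrps6 (chr16:92058086-92058385, plus strand) had no H3ac peak near it on any day.
Mrps11: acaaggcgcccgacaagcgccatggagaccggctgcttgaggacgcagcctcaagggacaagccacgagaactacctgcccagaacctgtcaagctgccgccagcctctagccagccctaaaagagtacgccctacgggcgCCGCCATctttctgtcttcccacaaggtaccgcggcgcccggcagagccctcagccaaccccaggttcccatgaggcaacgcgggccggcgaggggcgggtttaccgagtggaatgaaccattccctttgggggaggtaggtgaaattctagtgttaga
Mrps12: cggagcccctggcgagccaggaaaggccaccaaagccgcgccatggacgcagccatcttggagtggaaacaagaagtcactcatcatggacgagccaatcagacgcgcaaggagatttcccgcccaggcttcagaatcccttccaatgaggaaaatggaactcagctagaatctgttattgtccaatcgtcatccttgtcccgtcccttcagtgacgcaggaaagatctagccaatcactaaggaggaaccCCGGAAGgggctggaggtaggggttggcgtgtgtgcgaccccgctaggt
Mrpl21: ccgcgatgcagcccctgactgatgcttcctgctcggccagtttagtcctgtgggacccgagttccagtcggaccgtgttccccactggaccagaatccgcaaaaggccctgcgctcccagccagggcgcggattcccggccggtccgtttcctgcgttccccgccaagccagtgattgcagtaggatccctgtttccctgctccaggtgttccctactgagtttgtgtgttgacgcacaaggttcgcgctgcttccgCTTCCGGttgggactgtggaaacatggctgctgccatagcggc
Mrpl22: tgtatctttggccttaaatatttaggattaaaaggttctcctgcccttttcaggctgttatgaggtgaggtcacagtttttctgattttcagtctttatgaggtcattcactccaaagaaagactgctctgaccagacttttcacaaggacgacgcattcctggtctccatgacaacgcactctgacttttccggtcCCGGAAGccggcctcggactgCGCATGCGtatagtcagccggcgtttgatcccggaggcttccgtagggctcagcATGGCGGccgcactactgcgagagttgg
Mrps6: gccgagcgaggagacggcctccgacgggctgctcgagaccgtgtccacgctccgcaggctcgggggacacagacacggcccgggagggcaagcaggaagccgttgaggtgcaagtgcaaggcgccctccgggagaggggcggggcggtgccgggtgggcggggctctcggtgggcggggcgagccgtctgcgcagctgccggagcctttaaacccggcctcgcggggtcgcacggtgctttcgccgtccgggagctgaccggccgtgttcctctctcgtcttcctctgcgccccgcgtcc
In these windows the capitals mark a YY1 core on the minus strand in Mrps11 and ETS cores close to the start in Mrps12 and Mrpl21. Mrpl22 was the only member with the NRF1, ETS and YY1 cores together, its NRF1 core being read on both strands from overlapping letters. Mrps6 had none of the 4 motifs.

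By role, the proteins of the large subunit and those of the small subunit were marked in similar shares on day 2. Of 51 large-subunit genes, 46, 46 and 30 were marked on days 2, 4 and 6. Of 26 small-subunit genes, 23, 20 and 15 were. Both groups follow the structure of the ribosome and not the symbol: Mrps18a and Mrps30 are counted with the large subunit, where their proteins sit, and Mrps36, whose protein belongs to the 2-oxoglutarate dehydrogenase complex, is counted apart. Mrps30 was marked on all 3 days, with scores of 166.08, 203.67 and 224.60, and Mrps18a on days 2 and 4 (139.25 and 157.45). Mrps36 was likewise marked on days 2 and 4 only, with scores of 127.79 and 55.81. Scores are the authors' values on an unstated scale, so they rank peaks within a list and give no measure of change over time.

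Of 32 genes classed as mitochondrial 31 were marked on day 2, and of 45 classed with a bacterial counterpart 38 were. Mrps18a and Mrps18b were classed as mitochondrial although they share the S18 name with Mrps18c, which was classed with a bacterial counterpart. All 22 large-subunit genes classed as mitochondrial had a day 2 peak, 21 had one on day 4 and 11 on day 6. Of 29 large-subunit genes with a bacterial counterpart, 24, 25 and 19 were marked. In the small subunit, 14, 13 and 7 of 16 genes with a bacterial counterpart were marked, and 9, 7 and 8 of 10 classed as mitochondrial. These differences between role groups were not tested.

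Mrps18b, one of 3 members with an S18-type symbol, had the highest H3ac score of the members on every day. Its peaks scored 1013.74 on day 2 (rank 40), 871.99 on day 4 (rank 49) and 750.96 on day 6 (rank 82). The peaks were 3586, 2263 and 5352 bp wide, and all 3 also lay within 1 kb of an end of Ppp1r10, which encodes a regulatory subunit of a protein phosphatase. Of the other S18-type genes, Mrps18c was marked on all 3 days, and its day 6 peak (score 393.12, rank 498) stood higher in its list than those of day 2 (121.81, rank 5227) and day 4 (203.19, rank 2657). Next after Mrps18b on day 2 came Mrpl18 (739.46), Mrpl51 (525.80), Mrps7 (495.04) and Mrpl49 (485.64). On day 4 the order was Mrps18b, Mrpl51 (537.12), Mrpl18 (435.79), Mrps7 (402.07) and Mrpl43 (377.00). On day 6 Mrps18b was followed by Mrpl13 (454.58), Mrps18c, Mrpl32 (319.34) and the pair Mrpl46 and Mrps11 (292.16 for both, from a single peak).

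Mrpl12, the stalk protein that helps recruit translation factors, had peaks of score 451.22, 365.11 and 82.92 on days 2, 4 and 6 and an HDAC1 peak of score 71.85. Mrps12, a protein of the decoding centre, had peaks of score 219.53 and 136.85 on days 2 and 4 and none on day 6. Mrpl58, a peptidyl-tRNA hydrolase that rescues stalled ribosomes, was marked at opposite ends: its day 2 peak (134.49) lay at the 3′ end of the gene, whereas the higher of its day 4 peaks (231.62) and its HDAC1 peak (91.05) lay at the start. No day 2 H3ac peak was listed at the Mrpl58 start.

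Within each list, members stood high among marked genes on day 2 and low on day 6. Of the 70 members marked on day 2, 57 (81.4%) scored above the median of all marked genes, and on day 4 the number was 46 of 67 (68.7%). On day 6 it was 18 of 45 (40.0%). The median member stood at percentile 71.4 on day 2, 59.5 on day 4 and 37.2 on day 6. Among the 39 members marked on all 3 days, the medians were 73.5, 67.6 and 47.3, and 31 of the 39 stood lower on day 6 than on day 2. The lists differ in length, and so do the genes ranked in them, so these positions do not show a change in acetylation.

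**Figure D2:**
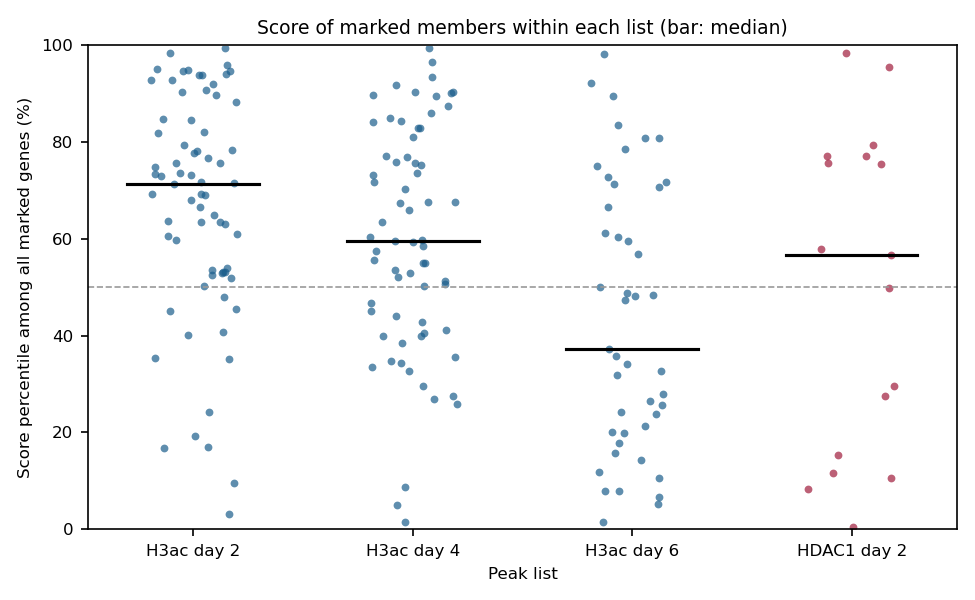
Each point is a marked member, placed by the percentile of its best gene-end score among all marked protein-coding genes of the same list, for H3ac on days 2, 4 and 6 and for HDAC1. Black bars are medians and the dashed line is percentile 50. Medians of members were 71.4, 59.5, 37.2 and 56.6 from left to right.

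The time course divided the members into a few patterns. Some H3ac peak was found at 74 of the 78 members (94.9%), against 47.7% of all genes, and a peak on all 3 days at 39, against 18.5%. A further 24 were marked on days 2 and 4 and not on day 6 (30.8%, against 13.5% of all genes). Only day 2 was marked at Mrpl55, Mrps2 and Mrps28 (3.85% of members, against 6.81% of all genes). Their day 2 gene-end scores were 59.92, 68.91 and 140.67. A higher day 2 peak of Mrps2 (372.24) lay over its annotated start, inside the gene and beyond 1 kb from its ends. Mrpl16, Mrpl33, Mrps22 and Mrps25 had peaks on days 2 and 6 without one on day 4 (5.13% of members, against 1.71% of all genes). On day 4 the distance from a gene end to the closest peak was 43205, 16597, 24174 and 30122 bp, in that order. No member was marked on day 6 alone, a pattern of only 1.23% of all genes.

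Of the 70 members marked on day 2, 63 (90.0%) were also marked on day 4 and 43 (61.4%) on day 6. Over all genes marked on day 2, the shares were 79.0% and 49.9%. The day 6 share of members was not higher among well-scored genes: with a day 2 score above 133.89, the median of all marked genes, 35 of 57 members (61.4%) and 62.9% of all genes were marked on day 6. At or below that score, 8 of 13 members (61.5%) and 36.9% of all genes were. The 43 members kept on day 6 had day 2 scores with a median of 209.73, and the 27 others a median of 198.66, over ranges that overlapped widely (68.63 to 1013.74 and 52.86 to 414.30).

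With lists of equal length, the 5286 highest-scoring peaks of each, members were marked in numbers of 59, 52 and 44 on days 2, 4 and 6. Over all genes the shares stayed at 22.3%, 22.8% and 22.4%. The cytosolic ribosomal protein genes (78 genes) gave 74, 72 and 70, and the 39 subunit genes of respiratory complex I gave 27, 25 and 16. The lower number of members on day 6 was thus also seen in lists of equal length, but each day is 1 library, and loss of acetylation cannot be told apart from a difference between libraries.

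**Figure D3:**
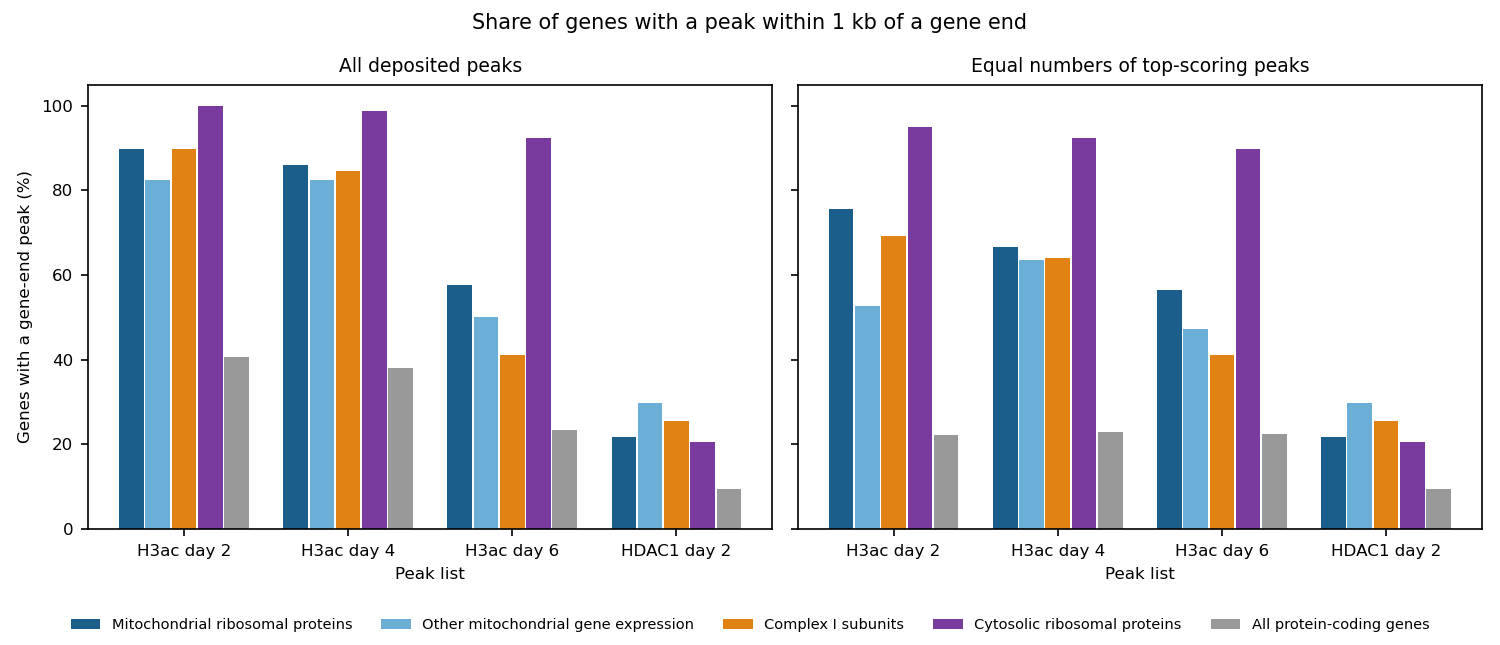
Bars give the percentage of genes with a peak within 1 kb of a gene end, for 5 sets of genes and the 4 peak lists, with all deposited peaks on the left and with the 5286 highest-scoring peaks of each list on the right. The mitochondrial ribosomal protein genes go from 89.7% to 57.7% between days 2 and 6 on the left and from 75.6% to 56.4% on the right, while all protein-coding genes are at 22.3% and 22.4% on the right.

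The 8 members without a day 2 gene-end peak were Mrpl3, Mrpl22, Mrpl23, Mrpl24, Mrpl34, Mrps6, Mrps21 and Mrps23. Of these, 4 were marked on day 4 (9.99% of all genes without a day 2 peak were) and 2 on day 6 (5.13%). Mrps21 had peaks of score 321.02 on day 4 and 221.02 on day 6, and its nearest day 2 peak was a weak one (61.18) 1882 bp beyond its other end. Mrpl3 had peaks of score 179.38 and 247.73 on days 4 and 6. The nearest day 2 H3ac peak to Mrpl3 lay 565253 bp away, although an HDAC1 peak (52.11, rank 4713 of 5286) was present on day 2. Mrpl23 (92.74) and Mrpl34 (51.98) were marked on day 4 alone (2.56% of members, against 4.12% of all genes).

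The 4 members with no H3ac at a gene end were Mrpl22, Mrpl24, Mrps23 and Mrps6, and 3 of them had peaks at an annotated start inside the gene. The annotated start of Mrpl22 lies 1621 bp inside the gene interval, that of Mrpl24 1413 bp and that of Mrps23 7119 bp. Mrpl22 and Mrpl24, whose bacterial counterparts lie at the peptide tunnel and its exit, each had H3ac peaks over that start on all 3 days. For Mrpl22 the scores were 114.99, 145.17 and 200.32, and for Mrpl24 they were 253.38, 103.42 and 72.34. Mrps23 had peaks over its start on day 4 (250.45) and day 6 (89.01) and one 158 bp from it on day 2 (107.91). HDAC1 peaks also covered the starts of Mrpl22 (138.66) and Mrps23 (94.72).

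Counting annotated starts beside gene ends, 77 of the 78 members had an H3ac peak on some day and 42 on all 3 days. This wider rule was chosen after seeing the data, and the share of all genes under it was not counted. Mrps6, a small-subunit protein with a bacterial counterpart, was the only member without an H3ac peak under it. Its nearest H3ac peaks lay 126087, 126605 and 126145 bp away on days 2, 4 and 6, and its nearest HDAC1 peak 1013555 bp away. Its start lies next to that of Slc5a3, which encodes a myo-inositol transporter, on the same strand, with the gene ends 14 bp apart, and Slc5a3 had no H3ac gene-end peak either. Other calls lay near the limit of 1 kb. Mrps2 had a day 4 peak (120.37) over an internal start 2115 bp from its end, and Mrps16 had a day 6 peak (132.07) 1689 bp beyond its end.

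Of the 78 members, 69 had an annotated start and strand in the promoter table, which let peaks be placed relative to transcription. A day 2 H3ac peak covered the first listed start of 45 of the 69, against 20.3% of the 17492 genes in the table. The numbers were 52 on day 4 (against 19.8%), 42 on day 6 (against 20.1%) and 14 for HDAC1 (against 3.36%). The wider day 6 peaks (median 2087 bp at members, against 1012 bp on day 2 and 1090 bp on day 4) spanned the start at nearly every member that had one nearby, 42 of 43 within 3 kb. On day 2, 7 members had a peak on each side of the start and none over any annotated start: Mrpl14, Mrpl37, Mrpl40, Mrpl53, Mrpl57, Mrps18c and Mrps23. On day 4 there were 3 such members, and on day 6 none. The share over all genes was not counted for this split or for the 42 of 43. Over all marked genes the median widths were 807, 970 and 2116 bp, so the day 6 widths of members were those of the list.

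**Figure D4:**
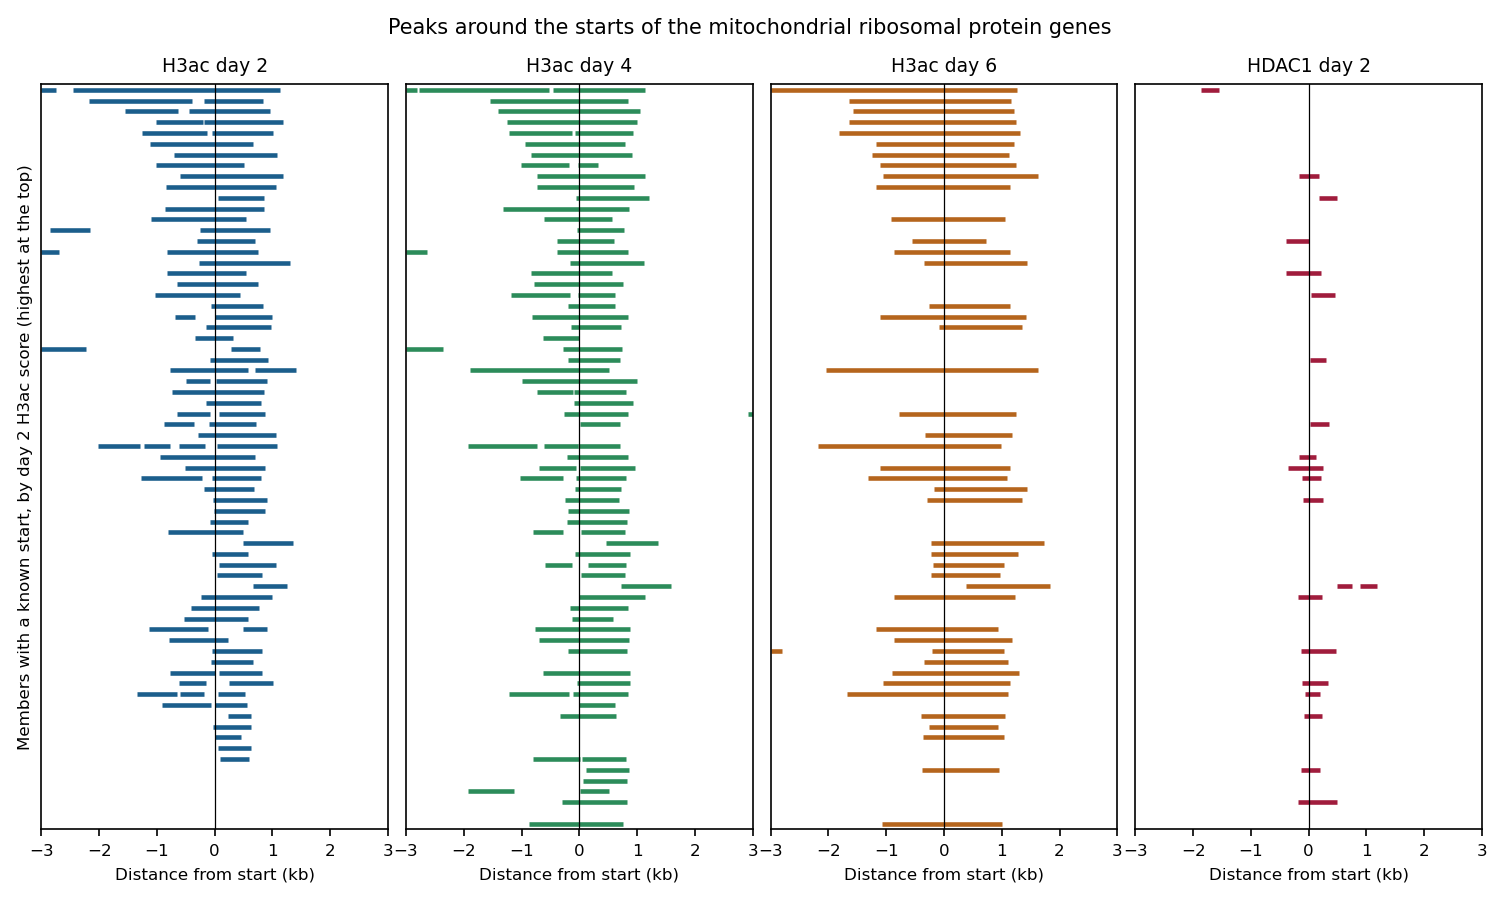
Horizontal lines are peaks within 3 kb of the annotated start of 69 members, oriented by strand so that transcription runs to the right, with 1 panel for each peak list and the same order of genes in each. Rows are ordered by day 2 H3ac score, highest at the top, and lines are clipped at 3 kb. HDAC1 peaks are short and mostly close to the start, and day 6 peaks are the widest.

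Shared promoters were common among the members. Of the 69 members with a known start, 25 (36.2%) had another protein-coding gene's start on the opposite strand within 1 kb. Among all 17492 protein-coding genes with a start in the table, the share was 9.61%. Either order of the starts was counted, so paired starts need not point away from each other. Among members this held only for Mrpl48 with Rab6a, whose gap was -36 bp. The 25 members formed 24 pairs, since Mrpl46 and Mrps11 are partners of each other. In 19 pairs the starts lay at most 300 bp apart. In all 24 pairs a single H3ac peak reached both genes on days 2 and 4, and in 18 pairs on day 6. A single HDAC1 peak reached both genes in 5 pairs. A peak reaches a gene when it lies within 1 kb of a gene end, and paired starts are themselves within 1 kb. These counts of shared peaks therefore largely restate how many pairs had a marked member. A peak between such starts cannot be assigned to either gene.

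Mrpl46 and Mrps11, whose shared promoter is printed above, encode a large-subunit and a small-subunit protein from starts 42 bp apart on chromosome 7. A single peak marked both on each day, with scores of 478.03 on day 2 (rank 388), 291.49 on day 4 and 292.16 on day 6. Their nearest HDAC1 peak lay 103153 bp from the far end of Mrps11. A few other partners also serve mitochondria or translation: Sars2 with Mrps12 (starts 147 bp apart), Twnk, the mitochondrial DNA helicase gene, with Mrpl43 (116 bp), and Ndufb5, a complex I subunit gene, with Mrpl47 (308 bp). Fau, which encodes a ubiquitin-like protein fused to ribosomal protein S30 of the cytosol, lay opposite Mrpl49 (192 bp). Most partners, such as Zfp661, Helq and Rab6a, were in none of the lists of related genes compared here. The Sars2, Twnk and Ndufb5 pairs were marked on days 2 and 4 and not on day 6, and the Fau pair on all 3 days.

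The 8 members with the highest day 2 scores all belonged to such pairs. Besides Mrps18b with Ppp1r10 they were Mrpl18 with Tcp1, a cytosolic chaperonin subunit gene, Mrpl51 with Ncapd2, a condensin subunit gene, Mrps7 with Gga3, a trafficking adaptor gene, and Mrpl49 with Fau. Then followed the pair Mrpl46 and Mrps11, scored from a single peak, and Mrpl32 with the proteasome subunit gene Psma2 (454.04). Mrpl12, next in score (451.22), was not paired. How often high-scoring genes are paired over all genes was not counted. A peak near the partner's start can count for the member, which can raise its score. The highest day 2 peak of Mrpl18 had its midpoint 1283 bp upstream of the annotated Mrpl18 start, on the side of Tcp1, and a second, lower peak (240.44) covered that start. For Mrpl49 the highest day 2 peak (485.64) lay wholly upstream, on the side of Fau. A lower peak (306.88) covered the Mrpl49 start. The day 2 peak of Mrps18b was also centred upstream, by 666 bp, and its highest day 4 peak lay wholly on the Ppp1r10 side, with a second, lower peak (196.35) at the Mrps18b end.

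Peaks at paired members lay further towards the partner than peaks at other members. The midpoint of the strongest day 2 H3ac peak was upstream of the start at 14 of 25 paired members and at 6 of 36 others. On day 4 the numbers were 15 of 25 and 4 of 34, and on day 6 they were 12 of 19 and 1 of 21. The median midpoint of the day 2 peak lay at -39.0 bp for paired members and 314 bp downstream for the others. A peak at the partner's start can count as the member's strongest, as at Mrpl18 (-1283 bp), so part of the difference is set in advance. Peaks far from the start were included too, such as that of Mrpl58 (9778 bp). Shares over all genes were not counted, and these differences were not tested.

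Paired members were all marked on days 2 and 4 (25 of 25 on each), and 19 were marked on day 6. Of the 44 other members with a known start, 36, 34 and 21 were. Over all genes, 85.2% of paired genes and 36.5% of others were marked on day 2, and 53.6% and 20.4% on day 6, so the higher share went with the arrangement in the whole genome as well. Among the 28 members with no other gene end within 2 kb, 25 were marked on day 2, 25 on day 4 and 14 on day 6.

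HDAC1 gene-end peaks were found at 17 members: Mrpl2, Mrpl3, Mrpl9, Mrpl11, Mrpl12, Mrpl14, Mrpl17, Mrpl20, Mrpl21, Mrpl30, Mrpl35, Mrpl39, Mrpl47, Mrpl58, Mrps14, Mrps17 and Mrps31. Of these, 16 also had H3ac on day 2, where 80.7% of all HDAC1-marked genes did, and the other was Mrpl3. Among day 2 H3ac genes, 16 of 70 members (22.9%) and 18.7% of all genes had HDAC1. Among acetylated genes the share with HDAC1 was thus nearer to that of all genes.

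The HDAC1-marked members were mainly large-subunit genes with a bacterial counterpart, 12 of 29 (41.4%). The other groups gave 2 of 22 mitochondrial large-subunit genes, 2 of 16 small-subunit genes with a bacterial counterpart and 1 of 10 mitochondrial small-subunit genes. This difference between groups was not tested. The strongest HDAC1 peak was that of Mrpl21 (score 261.09, rank 188 of 5286), which it shared with Ighmbp2, a helicase gene with a start 32 bp away. Mrpl30 followed (152.55, rank 333), with a peak shared with Mitd1. The remaining HDAC1 gene-end peaks scored at most 93.77, at Mrpl39, and the lowest 50.03, at Mrpl9. The HDAC1 peaks over the internal starts of Mrpl22 (138.66) and Mrps23 (94.72) lay beyond 1 kb from a gene end. They are not part of these counts or of this ranking.

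HDAC1 gene-end peaks sat close to the starts, which the limit of 1 kb around gene ends partly sets in advance. Within 3 kb of the start, 20 of the 69 members with a known start had an HDAC1 peak, and at 14 a peak covered it. The strongest HDAC1 peak of each gene had its midpoint between -198 bp, at Mrpl11, and 618 bp, at Mrpl20, with a median of 67.0 bp. Mrpl20 was the only member with 2 HDAC1 peaks. Of the 18 HDAC1 peaks, 15 overlapped a day 2 H3ac peak by at least 1 bp, 18 a day 4 peak and 11 a day 6 peak. Of 1818 HDAC1 peaks at ends of all protein-coding genes, 63.3%, 60.6% and 38.0% did. The peaks without day 2 overlap were those of Mrpl3, Mrpl58 and Mrps17.

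All 16 members with both HDAC1 and H3ac on day 2 were marked on day 4, and of the 54 with H3ac alone 47 were, so the 7 members marked on day 2 and not on day 4 had no HDAC1 peak. Over all genes the day 4 shares were 88.3% with HDAC1 and 76.8% without it. On day 6, 9 of the 16 (56.2%) and 34 of the 54 (63.0%) were marked, where the shares over all genes were 53.3% and 49.1%. None of these differences was tested. Day 2 H3ac scores of members with HDAC1 had a median of 198.23 (79.49 to 451.22), against 213.07 (52.86 to 1013.74) without it.

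Promoters of the members held the ETS and YY1 cores more often than those of all genes. Of 69 members, 26 (37.7%) had the ETS core in the 300-base window, against 12.9% of all protein-coding genes in the table and 22.9% of those with a day 2 H3ac gene-end peak. The YY1 core was present in 13 (18.8%, against 6.05% and 10.7%) and the NRF1 core in 8 (11.6%, against 4.96% and 8.49%). The TATA box letters, at any position and on either strand, were present in 5 (7.25%, against 14.8% and 7.60%). These were Mrps17, Mrpl46, Mrpl48, Mrps24 and Mrpl16. All 5 were marked on day 6, as were 40 of the 69 members, and the day 6 share of all genes with these letters was not counted. At least 1 of the NRF1, ETS and YY1 cores was found in 37 members, in 21 of 40 marked on day 6 and 16 of 29 others. Their windows held a median of 21.0 CpG dinucleotides, close to the 22.0 of day 2 H3ac genes and above the 13.0 of all genes. A match of letters is not a bound site, and no test was made.

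The other genes of mitochondrial gene expression, 74 in 5 lists, were marked in numbers of 61, 61 and 37 on days 2, 4 and 6, and 22 had HDAC1. With lists of equal length the numbers were 39, 47 and 35, so day 4 was then the highest and days 2 and 6 were close. Among them the translation factor genes went from 3 to 9 and 8, whereas the assembly genes gave 13, 11 and 9. Of 5 mitochondrial ribosome proteins with other symbols, all 5 were marked on days 2 and 4 and 3 on day 6, among them Dap3, a GTP-binding small-subunit protein (329.45, 399.91 and 209.66), and Ptcd3, a pentatricopeptide-repeat protein (444.32, 238.45 and 287.10). Of 13 translation factor genes, 10, 12 and 8 were marked, with the elongation factor gene Tufm on all 3 days. Of 19 assembly genes, 17, 13 and 9 were marked, and 8 had HDAC1, the highest at Mtg1, which encodes a GTPase (200.14). Of 20 genes of mitochondrial DNA, its transcription and its regulators, 15, 18 and 11 were marked. Tfam, which packages mitochondrial DNA, was marked on days 2 and 4 only, and Slirp, an RNA-binding protein gene, scored 785.05, 903.59 and 1303.44. Of 17 mitochondrial aminoacyl-tRNA synthetase genes, 14, 13 and 6 were marked.

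Set beside the members, the cytosolic ribosomal protein genes were marked more often on day 6, with 72 of 78 against 45 of 78, and in similar number by HDAC1, with 16 against 17. Complex I subunit genes, taken by symbol, resembled the members on days 2 and 4 (35 and 33 of 39), and 16 of 39 were marked on day 6. No test of these differences was made, since genes of 1 library are not replicates.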

How the data were processed

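ChIP-seq peak lists of H3ac on days 2, 4 and 6 and of HDAC1 on day 2 were used, 1 library each. Per the submitters' processing notes, reads were aligned with Bowtie 0.12.8 to mm10. Peak names begin with MACS, but neither the version of the caller, its threshold nor the use of inputs as control is given in the sources used here. Per the labels' protocols, sonicated fragments averaged 200 bp, fragments of 200 to 350 bp were selected and 18 PCR cycles followed. Each deposited list gives the authors' score for every peak, and the scale of this score is not stated. Read depth was not used here.

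Gene intervals came from a RefSeq table of assembly GRCm38.p6 (protein-coding genes of the autosomes, X and Y), and starts, strands and sequences from a RefSeq promoter table that held 69 of the 78 members. A gene was marked when a peak overlapped the 1 kb on either side of a gene end by at least 1 bp. Its score is that of its best gene-end peak. The marking step was tested on simulated data. Python 3.11.15, scipy 1.17.1 (Wilson intervals) and matplotlib 3.10.9 were used. Coordinates are 1-based.

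Of the related genes, Mtrfr was not matched. Alternatives were windows of 0.5 and 2.5 kb, the higher-scoring 50% of peaks, equal numbers of peaks, peak midpoints, members without close neighbours and annotated starts only. Starts added to gene ends were an alternative chosen after seeing the data. The members and lists were chosen with earlier results of these data known. Named genes followed a rule: members with HDAC1, without H3ac, on day 2 alone or only later, the 5 highest scores per list, members sharing peaks by score, near misses between 1 and 2.5 kb, and Mrps12, Mrpl12, Mrps18a, Mrps18b, Mrps18c, Mrps30, Mrps36 and Mrpl58. Members kept without a day 4 peak and other genes named beyond the rule were chosen after their values were seen.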

Additional observations from a re-analysis of the deposited data

How the results depend on the processing

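Of 64 values under alternatives, 51 stayed within 1.5 times the reported count and 13 were lower. With the higher-scoring 50% of peaks, 22 members were marked on day 6 and 10 by HDAC1, 20 had H3ac on all 3 days, 20 of day 2 were also marked on day 6, and 10 had HDAC1 with day 2 H3ac. Over all genes the shares under that setting were 12.9%, 4.91%, 8.88%, 10.3% and 3.45%. Restricting to the 28 members without another gene end within 2 kb lowers counts by construction: 25, 25 and 14 were marked on days 2, 4 and 6 and 9 by HDAC1, 11 had H3ac on all 3 days, 22 and 12 of day 2 were also marked on days 4 and 6, and 8 had HDAC1 with day 2 H3ac. No paired analysis was possible because each group had 1 library. With 1 library per group, leaving out a replicate was not possible either. Peak lists carry no read depth, so the limit of detection is unknown.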

Other observations

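H3ac gene-end peaks of days 2, 4 and 6 reached both ends of 7, 10 and 3 members, against 3.10%, 2.53% and 1.42% of all genes. Mrpl53 and Mrps34 were among them on all 3 days, with single peaks near enough to reach both ends of the gene. Mrpl2, Mrpl36, Mrpl38 and Mrps18b had separate peaks at the 2 ends on days 2 and 4. At Mrpl36 the day 2 peak at the lower end (237.56) also reached Ndufs6, a complex I subunit gene whose end lies 21 bp away, and a weaker peak (63.95) lay at the other end.

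Among members, the windows poorest in CpG were those of Mrpl44 (7 CpG dinucleotides), Mrpl20 (8) and Mrpl33 (10). All 3 members had H3ac on days 2 and 6, as did 43 of the 78 members, and Mrpl20 also had HDAC1. The next in order were mixed. Mrps36 (11) had no day 6 peak, Mrpl3 (12) no day 2 H3ac peak and Mrpl24 (12) no H3ac gene-end peak. Mrpl35 (12) had H3ac on all 3 days.

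Mrps18b had an HDAC1 peak (60.90) 1554 bp from its start, beyond the limit of 1 kb, inside its wide H3ac peaks of days 2, 4 and 6 and on the side of Ppp1r10.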
